A study of Homo sapiens with 10 samples.

Results

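Complexes I, III and IV and cytochrome c form the part of the respiratory chain that passes electrons from NADH to oxygen, and 46 genes of the nuclear genome that encode their subunits were listed for a description in LoVo cells. A probe set is the group of short oligonucleotides that reads a transcript on the array, and a gene was represented by the brightest probe set that the platform annotation pairs with its symbol alone. By this rule 40 of the 46 genes had a value, and all 40 were among the 12342 genes tested of the 19775 genes with such a probe set. Of the other 6 genes, NDUFS8, NDUFC2, NDUFS5 and UQCRH were read only by probe sets that carry several symbols, and NDUFA4 and UQCRFS1 by no probe set of the annotation table used here, so they are not analysed here. NDUFA4 carries the name of complex I and is now known as a subunit of complex IV.

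Complex I takes electrons from NADH in its matrix arm and pumps protons in its membrane arm, complex III passes the electrons from ubiquinol to cytochrome c, and complex IV passes them from cytochrome c to oxygen. The proton gradient that these complexes build drives the ATP synthase. The chain has 2 genomes: mitochondrial DNA encodes the proton-pumping core of complex I, cytochrome b and the catalytic core of complex IV, and nuclear genes encode all other subunits, so each complex is put together from transcripts of both.

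LoVo is a human line from a colorectal adenocarcinoma, and all cells were grown in the same DMEM with penicillin and streptomycin. In the ADMA group 4 cultures were kept in serum-free medium with 10 μM asymmetric dimethylarginine (ADMA), 3 cultures in serum-free medium (SS, serum-starved) and 3 cultures in medium with 10% fetal bovine serum (C, control), each for 96 h and each on its own array. ADMA is an arginine derivative, known as an endogenous inhibitor of nitric oxide synthase. No group joined ADMA with serum, and the cells are of 1 line, so the action of ADMA was measured on the serum-free background alone. The comparisons ask how serum starvation moved these genes and whether ADMA moved them under starvation. ADMA against SS and SS against C share the SS arrays.

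The authors summarized every probe set with MAS 5.0 and scaled each array, and the deposited intensities had nearly the same trimmed mean on all 10 arrays. The median signal was 91.9 to 98.1 on ADMA arrays, 87.5 to 90.7 on SS arrays and 60.7 to 73.1 on C arrays. A 28S ribosomal RNA control probe set read 1187 to 1631 in ADMA cells, 1783 to 3023 in SS cells and 488 to 566 in C cells. The ratio of the 3' to the 5' ACTB control was 1.02 to 1.05 in ADMA cells, 1.13 to 1.23 in SS cells and 1.01 to 1.08 in C cells. The part of these array properties in the values below was not tested, beyond the alternative scalings given beside the counts. All 10 markers of colon epithelium were among the genes tested, and so were 4 of 9 fibroblast, 1 of 6 endothelial and 2 of 4 leukocyte markers with a probe set. The summed signal of the epithelial list was 145863 to 167483 in ADMA cells, 119851 to 138591 in SS cells and 82128 to 83413 in C cells. That of the fibroblast list was 2522 to 2935 in ADMA cells, 2186 to 2348 in SS cells and 1440 to 1554 in C cells, and that of the endothelial list 332 to 516 in ADMA cells, 299 to 464 in SS cells and 309 to 349 in C cells. The leukocyte list gave 1364 to 2032 in ADMA cells, 3974 to 4638 in SS cells and 492 to 703 in C cells, most of it from LYZ. Members of a list did not all move together. By the test given below, 5 of the 10 epithelial markers rose in SS against C cells and 2, CDX1 and CDX2, fell. Of the 4 fibroblast markers tested 2, VIM and LUM, rose and 0 fell. Of all genes tested 30.3% rose and 27.3% fell. COL3A1, too dim to be tested, had mean log2 signals of 4.56 in ADMA, 3.62 in SS and 7.37 in C cells. A signal is a share of the RNA on the array, so the values below compare shares of the transcripts and do not show amounts of RNA per cell.

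Transcripts of the 40 nuclear genes, read by their brightest probe sets, were lower in SS cells than in C cells almost without exception. Of the 40 genes, 37 fell and 0 rose, where 27.3% of all 12342 genes fell and 30.3% rose. A gene is said to have risen or fallen where its adjusted p (limma, Benjamini-Hochberg over all genes tested) was under 0.01 and its fold at least 1.2. The median difference, SS minus C, was -0.75 on the log2 scale over the 40 genes, or 59.5% of the control signal, and 0.07 over all genes tested. The 3 SS arrays lay below all 3 C arrays for 39 of the 40 genes, and above them for 0, against 33.3% and 37.9% of all genes tested. With SAM, a permutation-based test that the study used on these arrays, 21 of the 40 fell and 0 rose. By SAM 16.5% of all genes fell and 20.7% rose. With the mean of all probe sets of a gene in place of the brightest, 26 fell and 2 rose. Of the 10983 genes tested in that way 23.7% fell and 26.6% rose.

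By the brightest probe sets, the size of the fall was not the same in each complex. All 26 genes of complex I fell, with a median difference of -0.87 (54.8% of control), and all 5 of complex III fell, with a median of -0.76 (59.1% of control). In complex IV 6 of 8 fell, with a median of -0.43 (74.1% of control), and CYCS, the gene of cytochrome c, did not pass the test. On single arrays the median of the complex I genes, each taken relative to its control mean, lay between -0.64 and -0.53 in ADMA cells and between -0.91 and -0.79 in SS cells. That of complex IV lay between -0.25 and -0.09 in ADMA cells and between -0.49 and -0.39 in SS cells, so the SS ranges of the 2 complexes did not overlap. The difference between complexes was not tested, and it rested on the choice of probe set. With all probe sets of a gene averaged, dim ones under the signal limit of the test included, the medians lay closer together. The SS minus C median was then -0.57 in complex I, -0.64 in complex III and -0.58 in complex IV.

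In ADMA cells the mean of 34 of the 40 genes lay between those of SS and C cells. The same count was not made over all genes, so nothing particular to these genes is read from it. Against SS cells, 23 of the 40 genes rose in ADMA cells and 0 fell, where 15.7% of all genes rose and 13.8% fell, and the median difference was 0.29, against 0.03 over all genes. All 4 ADMA arrays lay above all 3 SS arrays for 28 of the 40 genes and below them for 0, against 24.3% and 21.9% of all genes tested. The count of 23 depended on the scaling and the test. With quantile normalization 15 rose and 1, CYCS, fell, where 15.2% of all genes rose and 14.0% fell. With arrays centred on their medians 8 rose, where 7.3% of all genes rose. With SAM 5 rose, where 8.2% of all genes rose. Against C cells the ADMA cells were still lower, with 31 of 40 genes lower and 0 higher, where 23.2% of all genes were lower and 26.6% higher. The median difference, ADMA minus C, was -0.51, or 70.0% of control. With SAM 11 of the 40 genes were lower, where 12.3% of all genes were lower. All ADMA arrays lay below all C arrays for 36 of the 40 genes and above them for 0, against 29.0% and 33.0% of all genes tested.

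**Figure D1:**
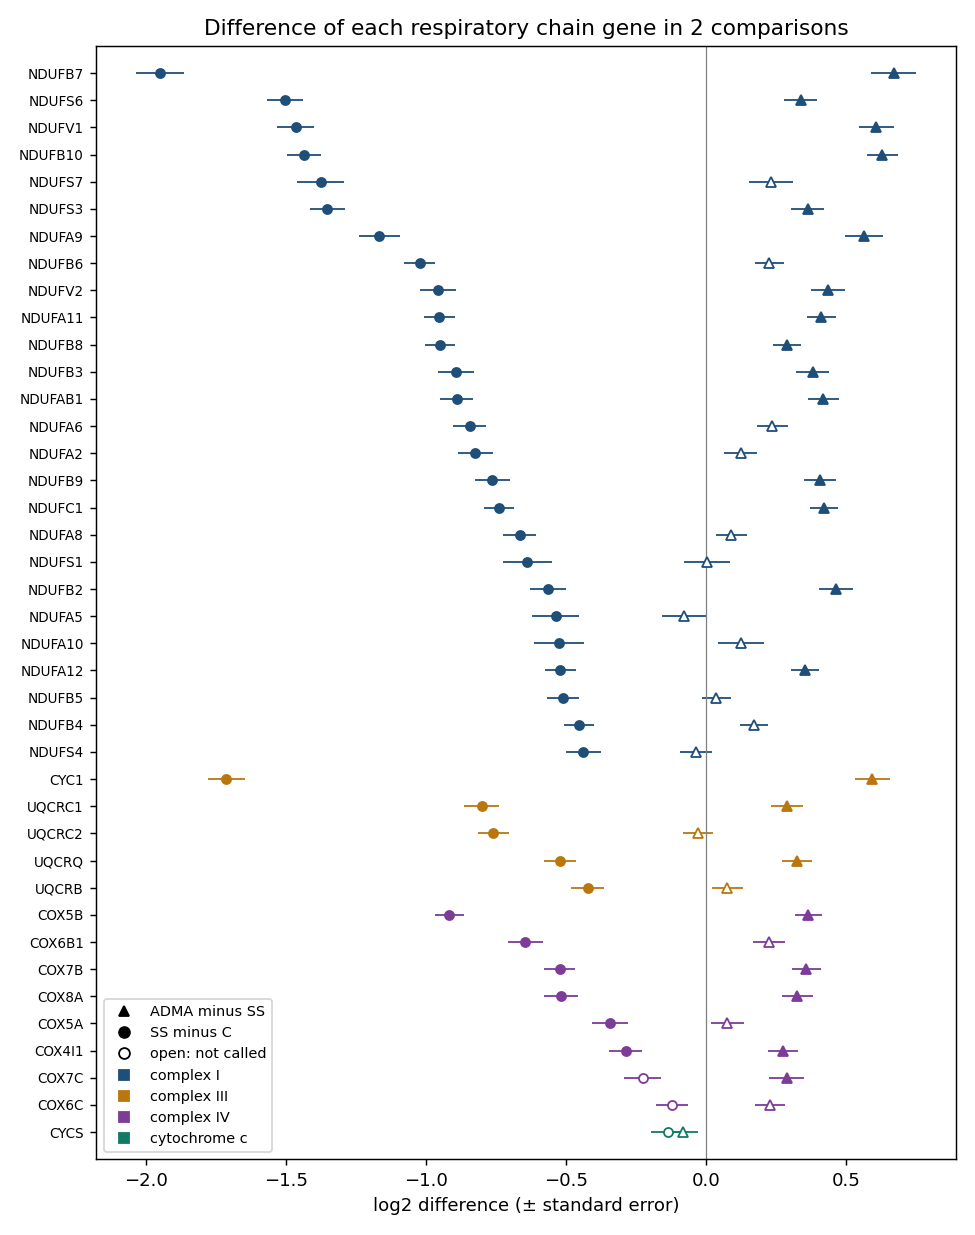
Log2 difference of each of the 40 genes, grouped by complex, for ADMA minus SS and SS minus C, with standard errors from the model; filled points passed the test. SS minus C ran from -1.95 to -0.12 and ADMA minus SS from -0.08 to 0.67.

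Promoters are shown for 4 genes that carry the same motif. Their SS minus C differences were -1.50 (NDUFS6), -1.38 (NDUFS7), -0.92 (COX5B) and -0.14 (CYCS). RefSeq promoter windows (GRCh38.p14, 250 bases before to 50 after the start site) were matched for 35 of the 40 genes, and 4 motifs known from nuclear genes of mitochondrial proteins or from GC-rich promoters were searched on both strands. GCATGCGC, the inner part of the NRF1 motif, was found in 7 of 35 windows (20%), against 3.27% of all 27305 promoter windows. AAGATGGCG, the YY1 motif, was in 5 (14.3%), against 1.85%, and CCGGAAGT, the ETS motif bound by GABP, was in 4 (11.4%), against 4.44%. GGGGCGGGG, the SP1 motif, was in 6 (17.1%), against 16% of all windows. Below are the 250 bases before the start site of NDUFS6 (chr5:1801157-1801406, plus strand), NDUFS7 (chr19:1383657-1383906, plus strand), COX5B (chr2:97645812-97646061, plus strand) and CYCS (chr7:25125261-25125510, minus strand). Capitals mark the inner NRF1 motif, which in NDUFS6 reads on the other strand, and in COX5B also 1 ETS motif.
NDUFS6: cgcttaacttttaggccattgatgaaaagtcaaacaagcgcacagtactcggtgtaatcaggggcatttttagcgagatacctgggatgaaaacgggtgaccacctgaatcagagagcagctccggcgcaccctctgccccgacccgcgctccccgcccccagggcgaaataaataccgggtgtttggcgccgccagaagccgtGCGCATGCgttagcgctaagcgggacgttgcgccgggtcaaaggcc
NDUFS7: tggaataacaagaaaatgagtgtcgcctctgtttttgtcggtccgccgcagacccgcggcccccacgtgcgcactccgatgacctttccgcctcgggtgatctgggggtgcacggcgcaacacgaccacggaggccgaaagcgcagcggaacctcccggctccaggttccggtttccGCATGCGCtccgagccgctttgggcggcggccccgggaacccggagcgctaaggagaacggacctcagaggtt
COX5B: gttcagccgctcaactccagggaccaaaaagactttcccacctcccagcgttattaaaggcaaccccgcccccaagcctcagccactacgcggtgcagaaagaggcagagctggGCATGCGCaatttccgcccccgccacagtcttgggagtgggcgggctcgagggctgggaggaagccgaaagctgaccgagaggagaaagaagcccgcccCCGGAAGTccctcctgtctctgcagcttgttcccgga
CYCS: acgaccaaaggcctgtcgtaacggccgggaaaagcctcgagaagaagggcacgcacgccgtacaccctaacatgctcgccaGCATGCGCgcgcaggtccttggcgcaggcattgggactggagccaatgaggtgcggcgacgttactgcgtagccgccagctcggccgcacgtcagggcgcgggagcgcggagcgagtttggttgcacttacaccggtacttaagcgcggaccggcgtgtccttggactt
Genes with the motif had both large and small differences. The 7 genes with the inner NRF1 motif had SS minus C differences between -1.50 (NDUFS6) and -0.14 (CYCS), with a median of -0.84, and the 28 without it had a median of -0.75. A match of letters is a description and no measure of binding.

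The core of the matrix arm, where NADH is oxidized and electrons run along iron-sulphur clusters, had all 5 measured genes lower in SS cells, with a median of -1.35 (39.2% of control) by the brightest probe sets and of -0.57 with probe sets averaged. NDUFV1 encodes the subunit that binds NADH. Its log2 signals were 12.31, 12.45, 12.37 and 12.51 in ADMA cells, 11.69, 11.85 and 11.87 in SS cells and 13.28, 13.30 and 13.23 in C cells. The 3 groups did not overlap, with a difference of -1.47 (SE 0.07, adjusted p = 1.06e-10) for SS minus C and of 0.61 (SE 0.06, adjusted p = 3.3e-06) for ADMA minus SS. The further probe set of NDUFV1 was dim and lay under the signal limit of the test. With it averaged in, NDUFV1 lost both calls, at -0.30 for SS minus C and 0.24 for ADMA minus SS. NDUFS7, which carries the last iron-sulphur cluster before ubiquinone, had 11.14, 11.28, 11.43 and 11.30 in ADMA cells, 11.18, 10.92 and 11.07 in SS cells and 12.54, 12.36 and 12.39 in C cells. It fell in SS cells by 1.38 (SE 0.08, adjusted p = 2.27e-09), while the ADMA and SS arrays overlapped, with a difference of 0.23 that did not pass the test (adjusted p = 0.0279). With probe sets averaged it lost the SS minus C call, at -0.57.

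NDUFS3, another core subunit of the matrix arm, had 11.90, 11.95, 11.90 and 11.99 in ADMA cells, 11.69, 11.46 and 11.56 in SS cells and 12.93, 12.91 and 12.92 in C cells. SS minus C was -1.35 (SE 0.06, adjusted p = 1.43e-10), and ADMA cells lay apart from both other groups, 0.36 above SS cells (SE 0.06, adjusted p = 0.000205). NDUFV2, the partner of NDUFV1, fell by 0.96 and rose by 0.43 with ADMA. NDUFS1, which holds several of the clusters, fell by 0.64, and its ADMA minus SS difference was 0.00 (SE 0.08). A further probe set of NDUFS1, with a mean log2 signal of 10.25, gave -0.89 for SS minus C and 0.62 for ADMA minus SS (SE 0.07, limma adjusted p = 3.67e-05 over all probe sets), so these 2 probe sets disagree on ADMA. A dimmer one past the filter, at 8.38, gave -0.98 for SS minus C and 0.25 for ADMA minus SS (SE 0.16).

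The 7 accessory genes of the matrix arm all fell in SS cells, with a median of -0.82, and 3 of them rose with ADMA. NDUFS6, a zinc-binding subunit added late in assembly and 1 of the promoters shown above, had 12.50, 12.42, 12.53 and 12.59 in ADMA cells, 12.18, 12.17 and 12.16 in SS cells and 13.80, 13.66 and 13.57 in C cells. The groups were fully apart, with SS minus C at -1.50 (SE 0.06, adjusted p = 6.26e-11) and ADMA minus SS at 0.34 (SE 0.06, adjusted p = 0.00043). NDUFA9, which sits between the matrix arm and the membrane arm, had 12.26, 12.24, 12.25 and 12.51 in ADMA cells, 11.69, 11.75 and 11.81 in SS cells and 12.85, 12.97 and 12.94 in C cells. It fell by 1.17 (SE 0.07, adjusted p = 2.9e-09) in SS cells and rose by 0.56 (SE 0.07, adjusted p = 1.62e-05) with ADMA, with 1 ADMA array above the other 3. NDUFA12 was the third to rise with ADMA, by 0.35, beside an SS minus C difference of -0.52. NDUFS4, a late-added subunit needed for a stable matrix arm, and NDUFA5 fell in SS cells, at -0.44 and -0.54, and their ADMA minus SS differences were -0.04 and -0.08.

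The 13 accessory genes of the membrane arm all fell too, with a median of -0.76, and 8 rose with ADMA. NDUFB7, an accessory subunit of the membrane arm, gave the largest fall of the 40 genes by the brightest probe sets, and its signals were 10.28, 10.44, 10.37 and 10.47 in ADMA cells, 9.68, 9.78 and 9.70 in SS cells and 11.75, 11.78 and 11.48 in C cells. SS cells were 3.87-fold lower than C cells (log2 difference -1.95, SE 0.09, adjusted p = 8.87e-11), and ADMA cells lay between them without overlap, 0.67 above SS cells (SE 0.08, adjusted p = 1.53e-05). With probe sets averaged the SS minus C difference was -0.82, and the ADMA minus SS difference of 0.64 did not pass the test. NDUFB10, of the same arm, had 12.60, 12.66, 12.70 and 12.80 in ADMA cells, 12.03, 12.02 and 12.14 in SS cells and 13.50, 13.52 and 13.47 in C cells. Again the groups were fully apart, at -1.44 (SE 0.06, adjusted p = 4.95e-11) for SS minus C and 0.63 (SE 0.06, adjusted p = 8.84e-07) for ADMA minus SS. The other 11 genes of the arm fell, with differences between -1.02 (NDUFB6) and -0.45 (NDUFB4). NDUFA8, NDUFA10, NDUFB4, NDUFB5 and NDUFB6 did not pass the test for ADMA minus SS, with differences of 0.04 to 0.22. NDUFAB1, the mitochondrial acyl carrier protein that also serves lipoic acid synthesis, fell by 0.89 and rose by 0.42.

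**Figure D2:**
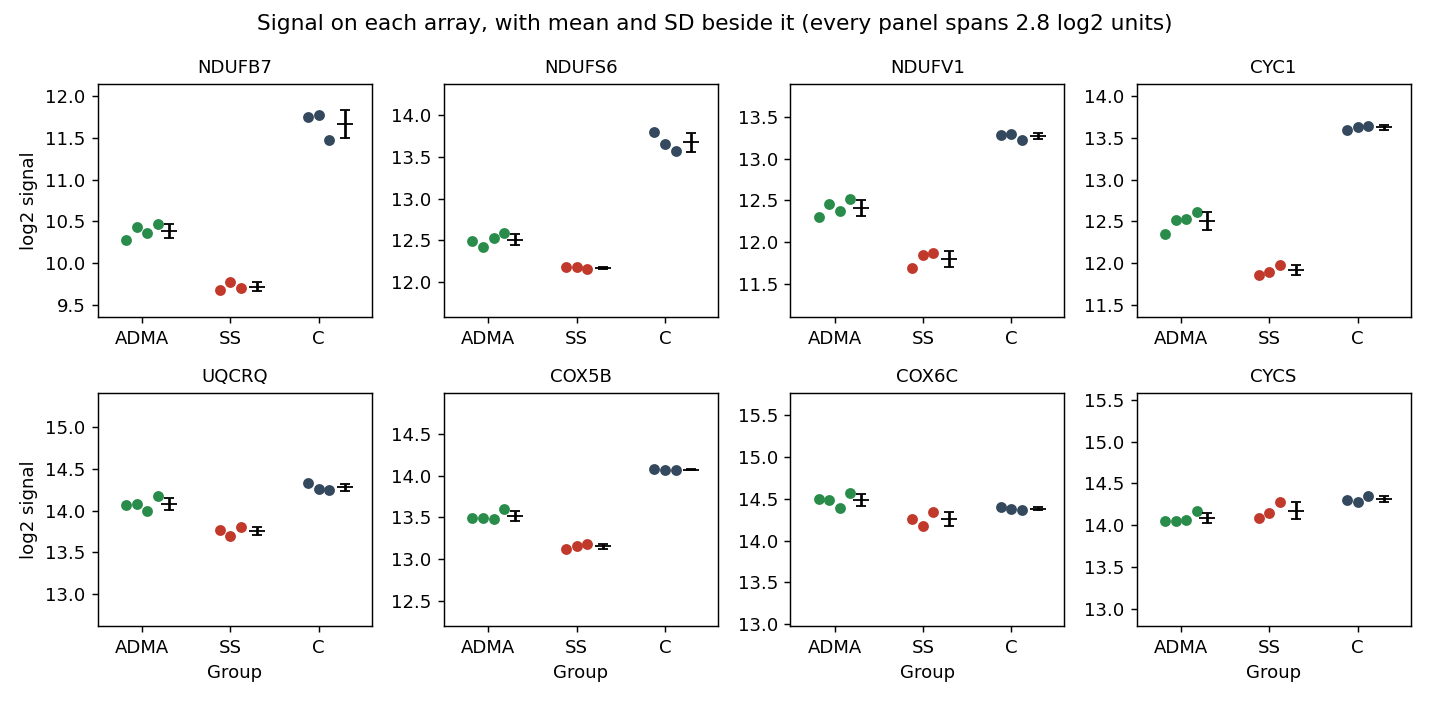
Log2 signal on every array (y axis) for 8 genes of the chain, by group (x axis, ADMA, SS and C); each point is 1 array, and the mark beside it gives the mean and SD of the group. The 3 groups lie apart for NDUFB7, NDUFS6, NDUFV1, CYC1, UQCRQ and COX5B, and the ADMA and SS arrays overlap for CYCS.

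In complex III the electron carrier and the core proteins fell together in SS cells, and the core proteins differed in their values with ADMA. CYC1, the cytochrome c1 that hands electrons to cytochrome c, had 12.35, 12.51, 12.53 and 12.62 in ADMA cells, 11.86, 11.90 and 11.98 in SS cells and 13.60, 13.63 and 13.65 in C cells. It fell 3.28-fold in SS cells (log2 difference -1.71, SE 0.07, adjusted p = 2.08e-11) and rose by 0.59 with ADMA (SE 0.06, adjusted p = 3.63e-06), with no overlap between any groups. UQCRC1, a core protein that does not carry electrons, had 13.20, 13.27, 13.12 and 13.27 in ADMA cells, 12.89, 12.87 and 13.02 in SS cells and 13.71, 13.68 and 13.78 in C cells, a difference of -0.80 (SE 0.06, adjusted p = 2.26e-08) for SS minus C and of 0.29 (SE 0.06, adjusted p = 0.000916) for ADMA minus SS. UQCRC2, its partner, had 13.00, 13.02, 12.93 and 12.91 in ADMA cells, 13.06, 13.00 and 12.93 in SS cells and 13.77, 13.71 and 13.80 in C cells. Here the ADMA and SS arrays covered the same range, with a difference of -0.03 (SE 0.05, adjusted p = 0.688) beside a difference of -0.76 for SS minus C (SE 0.06, adjusted p = 1.55e-08). With probe sets averaged UQCRC2 lost the SS minus C call, at 0.12.

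UQCRQ, a small subunit of complex III, had 14.06, 14.08, 14.00 and 14.18 in ADMA cells, 13.76, 13.70 and 13.80 in SS cells and 14.33, 14.25 and 14.25 in C cells. It fell by 0.52 and rose by 0.32 with ADMA, and its ADMA minus C difference of -0.20 was under the fold limit. UQCRB, which lies near the ubiquinone site, fell by 0.42, and its ADMA minus SS difference was 0.07 (SE 0.06, adjusted p = 0.3). A further UQCRB probe set with a mean log2 signal of 13.31 gave -0.11 for SS minus C and -0.23 for ADMA minus SS. Dimmer ones, at 9.99 and 6.55, gave -0.92 and -1.13 for SS minus C and 0.50 and 1.05 for ADMA minus SS. The probe sets of UQCRB thus disagree on both comparisons.

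Of the 8 genes of complex IV, 6 fell in SS cells and 5 rose with ADMA. COX5B, a subunit on the matrix side whose promoter is shown above, had 13.49, 13.49, 13.48 and 13.60 in ADMA cells, 13.12, 13.16 and 13.18 in SS cells and 14.08, 14.06 and 14.07 in C cells. It fell by 0.92 (SE 0.05, adjusted p = 8.99e-10), and rose by 0.36 with ADMA (SE 0.05, adjusted p = 3.29e-05), with all groups apart. COX6B1, which lies where the monomers of the dimer meet, had 13.04, 13.16, 13.17 and 13.28 in ADMA cells, 12.91, 12.90 and 13.00 in SS cells and 13.56, 13.61 and 13.57 in C cells. The SS arrays lay lowest and SS minus C was -0.65 (SE 0.06, adjusted p = 2.8e-07), while the ADMA minus SS difference of 0.22 (adjusted p = 0.00594) stayed under the fold limit.

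COX7B had 13.91, 13.97, 13.97 and 14.08 in ADMA cells, 13.61, 13.59 and 13.67 in SS cells and 14.15, 14.12 and 14.18 in C cells. COX8A had 13.64, 13.65, 13.72 and 13.78 in ADMA cells, 13.35, 13.30 and 13.47 in SS cells and 13.86, 13.93 and 13.88 in C cells. With probe sets averaged COX7B was at -0.92 for SS minus C, and its ADMA minus SS difference of 0.23 did not pass the test. COX7B and COX8A encode small membrane-spanning subunits, and by the brightest probe sets both fell by 0.52 in SS cells and both rose with ADMA, by 0.36 and 0.32, and their ADMA minus C differences were -0.17 and -0.19. COX4I1, a regulatory subunit, fell by 0.29 and COX5A fell by 0.34. Further COX4I1 probe sets past the filter, at mean log2 signals of 13.51 and 8.38, gave -0.37 and 0.78 for SS minus C. A further COX5A probe set, at 8.96, gave -1.79. COX6C and COX7C did not pass the test, with SS minus C differences of -0.12 (adjusted p = 0.0755) and -0.23 (adjusted p = 0.00735, under the fold limit). COX4I1 and COX7C were read by probe sets that the manufacturer marks as sharing sequence with other transcripts, so their values are uncertain. Against control cells ADMA cells were lower for 3 of the 8 genes of complex IV, COX5A, COX5B and COX6B1, and for 24 of the 26 of complex I.

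CYCS encodes cytochrome c, the soluble carrier between complexes III and IV that also activates caspases once it is released from mitochondria. It had 14.06, 14.05, 14.07 and 14.17 in ADMA cells, 14.08, 14.15 and 14.28 in SS cells and 14.30, 14.28 and 14.35 in C cells. The SS arrays reached the lower edge of the C arrays and overlapped the ADMA arrays. Its differences were -0.14 for SS minus C (SE 0.06, adjusted p = 0.0552) and -0.08 for ADMA minus SS (SE 0.06, adjusted p = 0.246), the lowest ADMA minus SS difference of the 40 genes. Dimmer probe sets of CYCS, at mean log2 signals of 8.78 and 6.71, gave 0.60 and -0.27 for SS minus C.

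**Figure D3:**
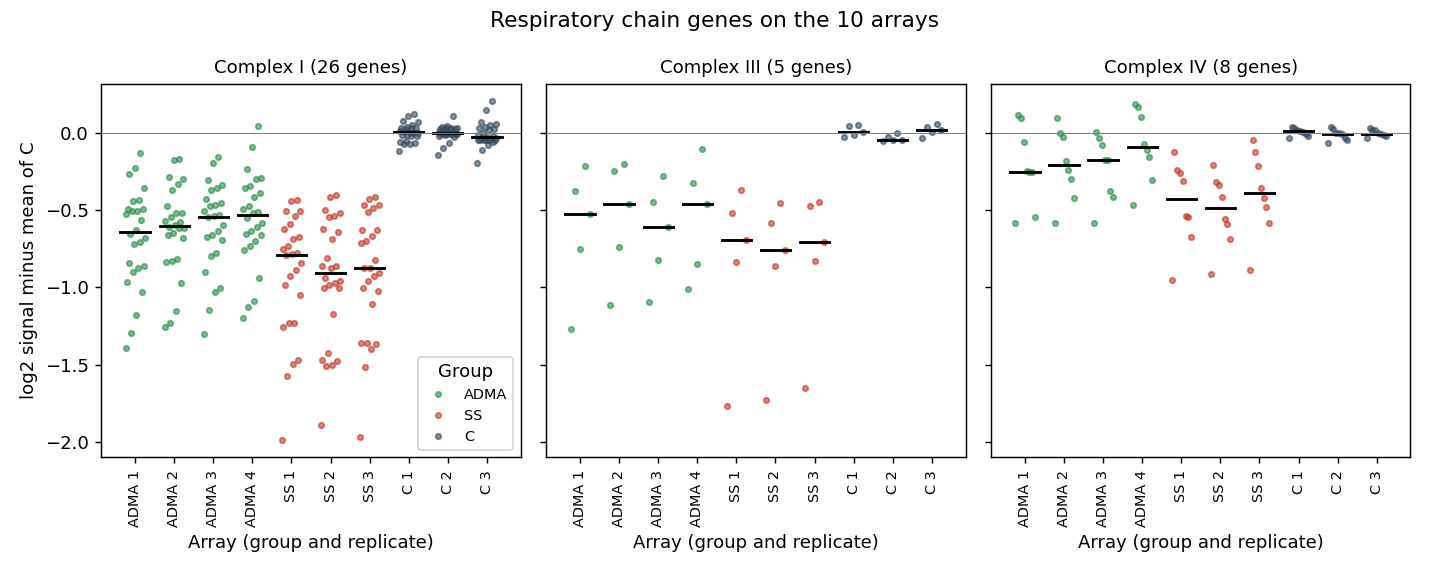
Difference of every gene of complexes I, III and IV from its control mean on the log2 scale (y axis) on each of the 10 arrays (x axis), with 1 point per gene and a bar at the median. Complex I medians lie between -0.64 and -0.53 on ADMA arrays and between -0.91 and -0.79 on SS arrays, and complex IV medians between -0.25 and -0.09 on ADMA arrays and between -0.49 and -0.39 on SS arrays.

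Genes with a lower mean signal over the 10 arrays tended to have larger falls. Across the 40 genes the mean log2 signal, which ran from 10.57 to 14.42, and the SS minus C difference had a Pearson r of 0.59 and a Spearman rho of 0.57. Within the 26 genes of complex I the r was 0.35, and across all 12342 genes it was -0.13. The mean signal includes the SS and ADMA arrays, so a larger fall itself lowers it. Part of the relation is thus built in, and its size was not measured. Genes share the 10 arrays and are not independent replicates, so this is a description. Most genes of complex IV and CYCS sat at the bright end, and the brightest signal of any probe set was 15.27 to 15.51 on ADMA arrays, 14.83 to 15.13 on SS arrays and 14.85 to 15.04 on C arrays. The part of brightness in the smaller falls of complex IV was not tested.

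**Figure D4:**
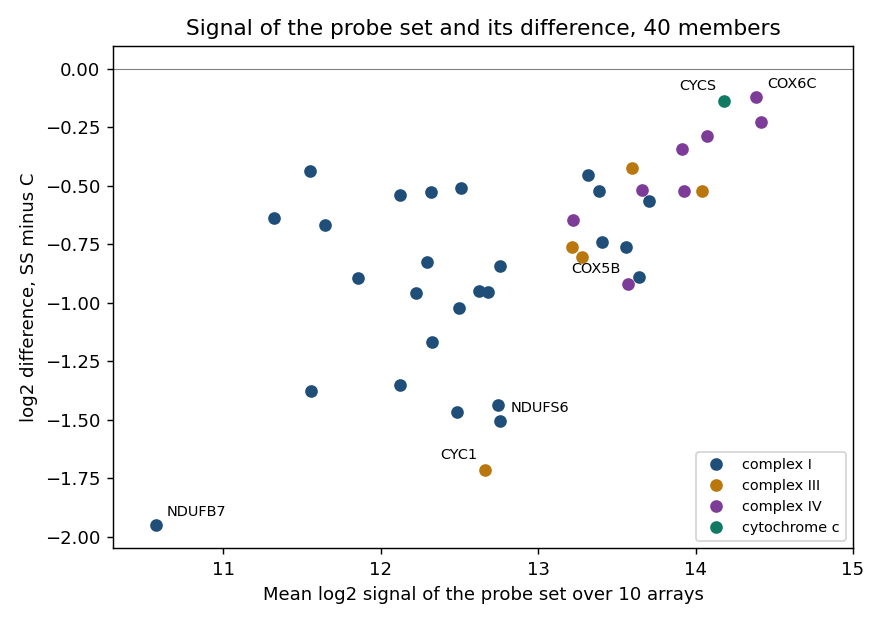
Mean log2 signal over the 10 arrays (x axis) and log2 difference SS minus C (y axis) for the 40 genes, coloured by complex. The mean includes the SS and ADMA arrays, so it is not independent of the difference. The points run from NDUFB7 at 10.57 and -1.95 to the bright genes of complex IV near 14.4 with differences closer to 0.

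Further probe sets of the same genes gave another view of these values, as 20 of the 40 genes had at least 1 more probe set past the filter, 31 in all. At a mean log2 signal of at least 10, a limit chosen after the values were seen, there were 12 such probe sets of 10 genes, and all 12 were lower in SS cells than in C cells. For 9 of the 12 the difference was larger than that of the probe set in use, as for COX7C (-0.69 beside -0.23), NDUFB2 (-1.13 beside -0.57) and NDUFA11 (-1.44 beside -0.95). For ADMA minus SS 10 of the 12 had positive differences, within a range of -0.24 (UQCRC2) to 0.66 (NDUFA11). Of the 19 dimmer probe sets 11 had the same sign as the probe set in use for SS minus C. Those higher in SS cells included single ones of NDUFB8, UQCRC2, NDUFB4, COX4I1 and CYCS, by 2.14, 1.84, 1.39, 0.78 and 0.60. Probe sets of a gene can read different transcript forms, and which of them read the mature coding transcript was not tested.

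Subunits encoded by mitochondrial DNA went the other way. Of the 13 such genes 7 had a probe set under their own symbol. In SS cells 6 of the 7 rose and 0 fell, where 30.3% of all genes rose and 27.3% fell. The median of the 7 was 1.25, in place of the -0.75 of the nuclear genes. COX3, a core subunit of complex IV, had 12.42, 12.27, 11.96 and 12.05 in ADMA cells, 11.93, 12.09 and 11.54 in SS cells and 9.82, 9.26 and 9.89 in C cells. Both serum-free groups lay above all C arrays and overlapped each other, with an SS minus C difference of 2.20 (SE 0.17, adjusted p = 2.34e-08). ND4, which lies in the proton-pumping part of complex I, had 14.94, 14.86, 14.85 and 14.95 in ADMA cells, 14.54, 14.51 and 14.79 in SS cells and 13.00, 12.91 and 13.06 in C cells. The control arrays again lay lowest, and SS minus C was 1.62 (SE 0.07, adjusted p = 9.41e-11).

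ND2 rose by 1.37 and ND6 by 1.25 in SS cells. The other 3 genes, named after their values were seen, were ATP6 with a rise of 1.21, COX2 with a rise of 0.80 and COX1, the catalytic subunit of complex IV, with a difference of 0.21 that did not pass the test (adjusted p = 0.0342). The count of 6 held with quantile normalization, with arrays centred on their medians and with SAM. In ADMA cells 5 of the 7 rose above SS cells, by 0.29 to 0.37, where 15.7% of all genes rose. With quantile normalization, with centring or with SAM 0 of the 7 rose. All 7 were higher in ADMA cells than in C cells, where 26.6% of all genes were higher. With quantile normalization, with centring or with SAM 6 of the 7 were higher. Within complex I, nuclear genes such as NDUFV1 had lower and the mitochondrial ND4 higher signals in SS cells than in C cells, on the same arrays. The 28S ribosomal control was also higher in both serum-free groups, as given above, and its part in these rises was not tested.

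**Figure D5:**
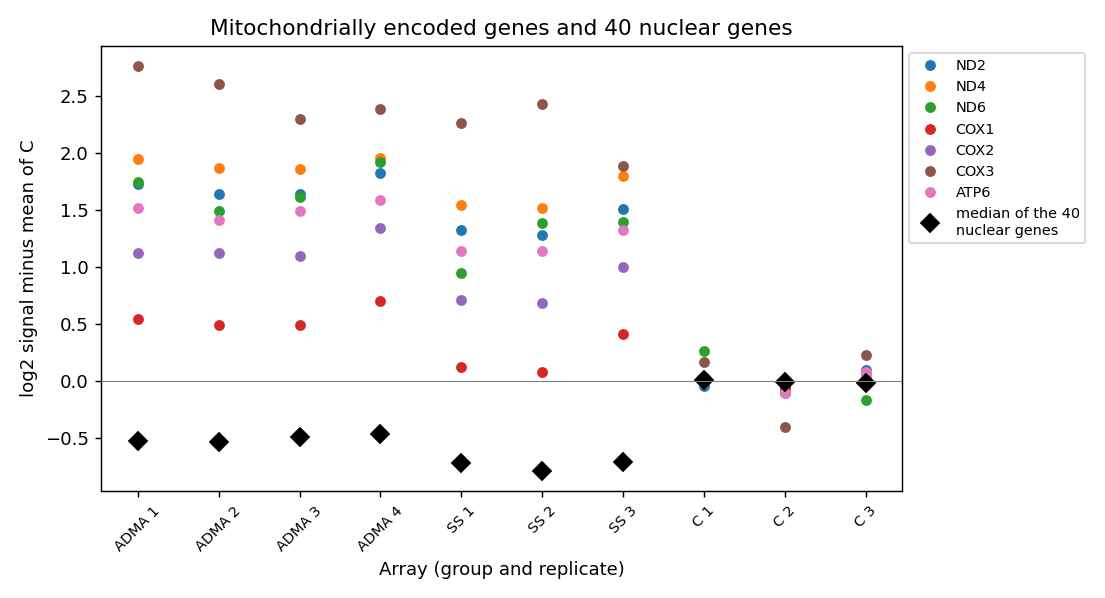
Log2 difference from the control mean on each array for the 7 subunits encoded by mitochondrial DNA and for the median of the 40 nuclear genes (y axis), over the 10 arrays in the order ADMA, SS and C (x axis). The mitochondrial genes lie above 0 on all ADMA and SS arrays, and the nuclear median lies between -0.53 and -0.46 in ADMA cells and between -0.78 and -0.70 in SS cells.

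The remaining genes of oxidative phosphorylation were counted from lists chosen with earlier results of these data known. The counts stand beside 27.3% of all genes that fell and 30.3% that rose in SS cells. With ADMA 15.7% of all genes rose and 13.8% fell. Of 15 further nuclear subunits of complexes I, III and IV that were tested, 8 fell in SS cells and 0 rose, and 6 rose with ADMA and 0 fell. The differences were -1.06 for NDUFA7, -0.92 for NDUFA13, -0.88 for NDUFA3 and -0.81 for NDUFB11. All 3 measured genes of complex II, the succinate dehydrogenase that is encoded by nuclear genes alone, fell, with differences of -0.92 for SDHA, -0.68 for SDHD and -0.65 for SDHC, and SDHC rose with ADMA by 0.63. For SDHC the ADMA minus C difference was -0.02 (SE 0.09, adjusted p = 0.861).

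Of 17 tested genes of the ATP synthase and its partners, 14 fell in SS cells and 1 rose, and 10 rose with ADMA and 1 fell. ATP5MC1, a subunit of the rotating c-ring, fell by 1.86, ATP5F1D, of the central stalk, fell by 1.61, and ATP5IF1, which inhibits the enzyme when it runs in reverse, fell by 1.38. ATP5MF was the 1 that rose, by 2.69, on a dim probe set with log2 signals of 7.92, 7.63, 7.72 and 7.87 in ADMA cells, 7.64, 7.69 and 7.12 in SS cells and 4.38, 4.59 and 5.42 in C cells.

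Assembly factors fell with the subunits. Of complex I factors 12 of 15 fell in SS cells and 0 rose, led by ECSIT (-1.46), NDUFAF3 (-1.29), NDUFAF2 (-1.19) and ACAD9 (-1.15), where 27.3% of all genes fell. With ADMA 4 of the 15 rose, where 15.7% of all genes rose, so no more is read from that count. Of complex III factors 4 of 6 fell and 0 rose, with BCS1L, which inserts the Rieske protein, and UQCC3 both at -1.05 and LYRM7 at -0.94, and 2 rose with ADMA. Of complex IV factors 18 of 23 fell and 2 rose, and with ADMA 5 of 23 rose and 2 fell, which is likewise near the 15.7% and 13.8% of all genes. TACO1, which activates translation of the mitochondrial COX1 message, fell by 1.31 and COX20 fell by 1.27. The 2 that rose were COX19, by 1.39, and the copper chaperone COX17, by 1.91 on a dim probe set with signals of 6.96, 6.32, 6.25 and 7.09 in ADMA cells, 7.37, 7.10 and 6.64 in SS cells and 5.98, 4.98 and 4.43 in C cells.

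Of 13 tested genes that transcribe mitochondrial DNA or regulate the nuclear subunits, 8 fell in SS cells and 1 rose, where 27.3% of all genes fell and 30.3% rose, and with ADMA 4 rose and 1 fell, where 15.7% rose and 13.8% fell. TFAM, which packages mitochondrial DNA and starts its transcription, had 10.51, 10.59, 10.46 and 10.50 in ADMA cells, 10.24, 10.17 and 9.98 in SS cells and 11.50, 11.37 and 11.31 in C cells. Its groups did not overlap, with differences of -1.26 for SS minus C (SE 0.08, adjusted p = 3.6e-09) and 0.39 for ADMA minus SS (SE 0.08, adjusted p = 0.000886). TFB2M, a further factor of mitochondrial transcription, fell by 1.11, PPARGC1B, a coactivator of mitochondrial genes, fell by 1.35, and GABPB1, a partner of the ETS factor GABPA, fell by 0.92. ESRRA, a nuclear receptor that drives genes of oxidative metabolism and named here after its values were seen, was the 1 that rose in SS cells, by 0.40, and it fell with ADMA by 0.47. PPARGC1A was too dim to be tested.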

How the data were processed

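The members and gene lists were chosen with earlier results of these data known. The labels call the cultures biological replicates. The authors deposited 1 intensity per probe set of an Affymetrix HG-U133 Plus 2.0 array on a linear scale, made with MAS 5.0. Here log2 was taken with no pseudocount and no further normalization between arrays. Genes whose probe set reached a mean of 76.3, the 50th percentile of 54675 probe sets, entered limma version 3.58.1 under R 4.3.3 (intensity trend, 1 model over 10 arrays, Benjamini-Hochberg). The steps were tested on simulated data. Values on every array are given, by rule, for the complex I genes with the 6 largest SS minus C and 4 largest ADMA minus SS differences, the 3 largest of each in complexes III and IV, and CYCS. Up to 4 genes with the largest called differences are named per other list, and ESRRA and 3 mitochondrial genes were added after their values were seen. Alternatives were 2 scalings, 2 filters, averaging the probe sets of a gene, limma without the trend, with array weights or with the arrays of 2 groups, SAM written out in R, a looser threshold, 16 added to each signal, a block for the replicate number and leaving out 1 array at a time. Promoters are from RefSeq, GRCh38.p14. Plots were made in Python 3.11.15 with matplotlib 3.10.9.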

Additional observations from a re-analysis of the deposited data

Results flagged for a closer look

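In 5 of the 40 genes 1 of the 4 ADMA arrays stood apart, with a gap to its nearest neighbour that took more of the range of the group than Dixon's 95% critical value allows, which chance exceeds in about 1 of 20 groups. The share was 0.912 for NDUFA9 (replicate 4, 12.51 beside 12.26), 0.831 for NDUFB2 (replicate 4, 13.96 beside 13.78), 0.951 for COX5B (replicate 4, 13.60 beside 13.49) and 0.892 for CYCS (replicate 4, 14.17 beside 14.07). It was 0.882 for NDUFA11 (replicate 1, 12.56 beside 12.66), where the array lay below the others. Without ADMA replicate 4, 21 of the 40 genes rose against SS cells in place of 23, and COX4I1 and COX7C lost the call.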

How the results depend on the processing

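Precision is limited by 3 or 4 arrays a group. Centring each array on its median moved the zero line by -0.39 for SS minus C, -0.12 for ADMA minus SS and -0.51 for ADMA minus C, and the causes of the changes listed here were not tested.

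For SS minus C, the 37 genes lower became 21 with SAM, 26 with probe sets averaged (and 2 higher) and 36 to 38 with 1 array left out. The median of -0.75 became -0.60 with quantile normalization, -1.14 with centring, -0.57 with probe sets averaged and -0.76 to -0.71 with 1 array left out. For ADMA minus SS, the 23 higher became 15 with quantile normalization, 8 with centring, 5 with SAM, 18 with probe sets averaged and 19 to 26 with 1 array left out (19 without SS replicate 2), and the median of 0.29 became 0.20, 0.17 with centring and 0.26 to 0.33 with 1 array left out. For ADMA minus C, the 31 lower became 20 with probe sets averaged (and 2 higher), 11 with SAM, 40 with centring and 29 to 31 with 1 array left out, and the median of -0.51 became -0.43 with quantile normalization, -1.02 with centring and -0.34 with probe sets averaged.

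With probe sets averaged, the SS minus C medians were -0.57 in complex I, -0.64 in complex III and -0.58 in complex IV, and those of ADMA minus C were -0.41 in complex I, -0.29 in complex III and -0.31 in complex IV. NDUFV1 and NDUFS7 were among 10 genes that lost the SS minus C call. SS minus C turned positive for NDUFA5 (0.35), NDUFS4 (0.54), NDUFB4 (0.47), NDUFB6 (0.70) and UQCRC2 (0.12). ADMA minus C turned positive for NDUFA5 (0.31), NDUFS4 (1.42), NDUFB4 (0.36), NDUFB6 (0.54) and NDUFB8 (0.20). The further probe sets of NDUFA5, NDUFS4, NDUFB6 and NDUFV1 had mean log2 signals of 6.02, 4.16, 5.91 and 6.21, under the filter at 6.25. Those of NDUFB4, UQCRC2 and NDUFB8 passed it. ADMA minus C turned negative for COX6C with centring (-0.40) and for COX7C with quantile normalization (-0.27) and centring (-0.44). Over all genes, 3738 rose and 3372 fell in SS minus C. These became 2014 and 5184 with centring, 2551 and 2032 with SAM and 2923 and 2601 with probe sets averaged. For ADMA minus SS, 1935 and 1704 became 1870 and 1730 with quantile normalization and 902 and 2097 with centring. They became 1009 and 938 with SAM and 1395 and 942 with probe sets averaged. For ADMA minus C, 3284 and 2859 became 1209 and 6101 with centring and 2239 and 1518 with SAM. With probe sets averaged, where 10983 genes were tested, they became 2682 and 2184. A replicate block left 37 genes lower in SS minus C and 31 in ADMA minus C and gave 21 higher in ADMA minus SS, without COX4I1 and COX7C. Deviations from the group means correlated between -0.07 and 0.10 for same-numbered arrays and between -0.11 and 0.14 for differently numbered ones. The labels do not say whether a number marks a shared batch. With 3 or 4 arrays a group these correlations cannot decide it. Both other filters, limma with array weights or without an intensity trend, fits on 2 groups and 16 added to each signal moved no count of the 40 genes beyond 22 in place of 23. An adjusted p under 0.05 with no fold limit gave 38 lower, 29 higher and 36 lower in the 3 comparisons.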
